A study of Mus musculus with 6 samples.

Results

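The genes examined were the 9 enzymes of the pentose phosphate pathway and of the step that follows it: Rpia, Rpe, Tkt, Taldo1, G6pdx, Pgls, Pgd, Prps1 and Prps2. They were chosen by gene symbol, as 9 of the 49997 rows of a table of read counts, and all 9 passed the filter on low counts. The choice started from Rpia, which lies next to the immunoglobulin kappa locus and was already known to be higher in the mutant libraries of these data. Its own difference between the genotypes is therefore described without a test, and the question is whether the other 8 enzymes shared it. The libraries came from bone marrow small pre-B cells of C57BL/6 mice aged 6 to 12 weeks, purified by flow cytometry. One group was wild type (WT) and the other carried the ΔrsCBE genotype, with 3 libraries each and no treatment named for either. A deletion is denoted by Δ. The series title links the work to chromatin topology mediated by CTCF, a DNA-binding protein that helps to form chromatin loops, and to receptor editing, in which a B-cell precursor swaps its light chain for a newly rearranged one. The labels leave unsaid which interval was removed, whether the deletion is carried on both chromosomes, or how many mice went into a library. The labels do not say that the libraries came from separate animals. The sex patterns given below show only that the ΔrsCBE libraries did not all come from the same mouse. The p-values therefore measure only the spread between these libraries, which may in part be technical.

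The pentose phosphate pathway branches from glycolysis at glucose 6-phosphate. Its oxidative arm (G6pdx, Pgls, Pgd) yields NADPH, the reducing agent of biosynthesis and of glutathione recycling, together with ribulose 5-phosphate. Its non-oxidative arm interconverts sugar phosphates: ribose 5-phosphate isomerase (Rpia) and ribulose 5-phosphate epimerase (Rpe) both act on ribulose 5-phosphate, and transketolase (Tkt) and transaldolase (Taldo1) pass carbon units back to glycolysis. Phosphoribosyl pyrophosphate synthetases (Prps1, Prps2) then turn ribose 5-phosphate into PRPP, the sugar donor for nucleotides. Dividing cells draw on the pathway for nucleotide synthesis, and small pre-B cells are a stage of B-cell development at which division has largely stopped and light chain genes rearrange.

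Library totals ranged from 428106 to 1300805 counts, so 3 counts, taken as the smallest detectable amount, corresponded to 2.38 to 7.36 CPM. CPM here are counts scaled to a common total over the tested genes, with TMM factors. Values are listed in the order of replicates 1 to 3, and SD is over n = 3. All 10 markers of the pre-B stage were tested, with a summed level of 10300 to 12100 CPM in WT and 11400 to 12100 CPM in ΔrsCBE. By edgeR 0 of them had an adjusted p under 0.05. At an unadjusted p under 0.05 there were 3, against 10.2% of all tested genes. They were Vpreb3, Blnk and Cd79a, with log2 fold changes (ΔrsCBE minus WT) of 0.53, 0.25 and -0.24. Blnk and Il2ra had groups that did not overlap, both higher in ΔrsCBE, against 16.1% of all tested genes in either direction. Of the T and NK cell markers 7 of 9 were listed at 0 in every library, among them Cd3e and Trbc2, and the list summed to at most 2.53 CPM. Of 8 erythroid markers, 6 were listed at 0, among them both beta-globin genes. The list summed to at most 0.792 CPM in WT and to 1.03 to 2.42 CPM in ΔrsCBE. Hba-a1 had 1 count, in WT replicate 3, and Slc4a1 had 0 counts in every WT library and 2, 1 and 1 in the ΔrsCBE libraries. Myeloid markers summed to 55.4 to 88.3 CPM in WT and 61.7 to 75.8 CPM in ΔrsCBE, of which Itgam made up 51.5 to 83.4 and 47.2 to 61.0 CPM. S100a8 and Elane were listed at 0 throughout. Lyz2 and S100a9 had 0 counts in every WT library, with 2, 4 and 2 counts of Lyz2 and 2, 1 and 3 of S100a9 in the ΔrsCBE libraries. ΔrsCBE replicates 2 and 3 had a female pattern (1603 and 1430 Xist counts and 0 counts of Y-linked genes), whereas ΔrsCBE replicate 1 and all WT libraries had a male pattern. Of 23 tested cell-cycle genes 14 fell in ΔrsCBE at an adjusted p under 0.05 (edgeR), where 1.49% of all tested genes did, with a median log2 fold change of -1.02. The list summed to 7030 to 7710 CPM in WT and 2990 to 4790 CPM in ΔrsCBE. Of 16 early-response genes 11 were tested and 3 passed, Fos, Jun and Jund, all higher in ΔrsCBE, where 1.69% of all tested genes passed in either direction. The summed level of that list was 3230 to 3730 CPM in WT and 4270 to 6350 CPM in ΔrsCBE. The part of erythroid and myeloid RNA, cell cycle and early response in the values that follow was not tested. For sex, a covariate was fitted, but the genotype difference then rests on ΔrsCBE replicate 1 alone against WT. In bulk samples such as these, fewer cells of a type and less RNA per cell cannot be told apart.

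Rpia, the enzyme that converts ribulose 5-phosphate into ribose 5-phosphate, is the 1 member near the kappa locus. It lies on chromosome 6 from 70765720 to 70792232 on the minus strand (GENCODE M21, GRCm38), 38.8 kb beyond the constant gene Igkc, and overlaps no annotated gene. The WT libraries held 42, 24 and 95 of its reads and the ΔrsCBE libraries 120, 118 and 117. Scaled to CPM, the WT libraries read 68.1, 58.9 and 75.2 and the ΔrsCBE libraries 145, 122 and 148. Every ΔrsCBE library lay above every WT library, as was the case for 7.23% of all tested genes, and the ratio of the group means was 2.05. The male ΔrsCBE library stood at 2.15 times the WT mean, and the 2 female ones together at 2 times. The fitted log2 difference was 0.99 with a standard error (SE) of 0.17. It stayed between 0.94 and 1.11 when any 1 library was left out.

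The sequences upstream of Rpia and of Rpe are shown because these enzymes share a substrate and had the highest and the lowest fitted fold change of the 9. Both are given 5′ to 3′ from the RefSeq promoter table (GRCm38.p6), ending at the first base before the earlier of the RefSeq and GENCODE starts. Capitals mark matches to the motifs searched. The Rpia stretch covers chr6:70792233-70792425 on the minus strand and the Rpe stretch chr1:66700581-66700830 on the plus strand.
Rpia upstream: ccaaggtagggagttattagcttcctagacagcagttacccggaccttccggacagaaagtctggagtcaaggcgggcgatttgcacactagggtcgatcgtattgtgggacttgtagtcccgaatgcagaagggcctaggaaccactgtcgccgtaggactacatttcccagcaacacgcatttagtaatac
Rpe upstream: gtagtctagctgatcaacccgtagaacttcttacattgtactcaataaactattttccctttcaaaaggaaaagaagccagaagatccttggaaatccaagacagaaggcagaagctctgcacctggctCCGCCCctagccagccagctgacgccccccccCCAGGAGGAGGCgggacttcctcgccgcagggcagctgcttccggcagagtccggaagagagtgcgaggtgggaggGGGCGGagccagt
The motifs were searched on both strands, in windows from 250 bases before to 50 after each RefSeq start. They were a CTCF core, an AP-1 site (TGANTCA), an antioxidant response element (TGACNNNGC, which can overlap an AP-1 site), an E-box (CACGTG), a GC box (GGGCGG) and a TATA box (TATAAA). All 9 enzymes matched an entry of the table. The stretch printed for Rpia holds no match to any of them, and the Rpe stretch holds 1 CTCF core match and 2 GC boxes. Among the 9 enzymes Rpe was the 1 with a CTCF core match, which 2.43% of all 32851 windows hold. Antioxidant response element letters occurred at G6pdx and Pgd, against 12.4% of all windows. GC boxes occurred at 8 of the 9, all but Prps2, against 35.7% of all windows, the Rpia match lying after the stretch shown. The AP-1, E-box and TATA letters occurred at 0 of the 9, against 7.81%, 7.15% and 13.6% of all windows. A match is a description of the letters, not evidence of binding.

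None of the other 8 enzymes passed the threshold, which was an adjusted p under 0.05 (edgeR quasi-likelihood test, Benjamini-Hochberg over all 7792 tested genes). Over all tested genes 1.69% passed it, so a count of 0 among 8 is near that background. At an unadjusted p under 0.05 there was 1 of the 8, Rpe, against 10.2% of all tested genes, and the DESeq2 Wald test called 0 and had 0 at that unadjusted level. Of the 8, 5 had a fitted log2 fold change above 0 and 3 below 0. Their median was 0.05, beside 0.01 for all tested genes. Only Taldo1 had WT and ΔrsCBE values that did not overlap, with ΔrsCBE the lower. Over all tested genes 16.1% did not overlap in either direction and 8.92% in that one.

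**Figure D1:**
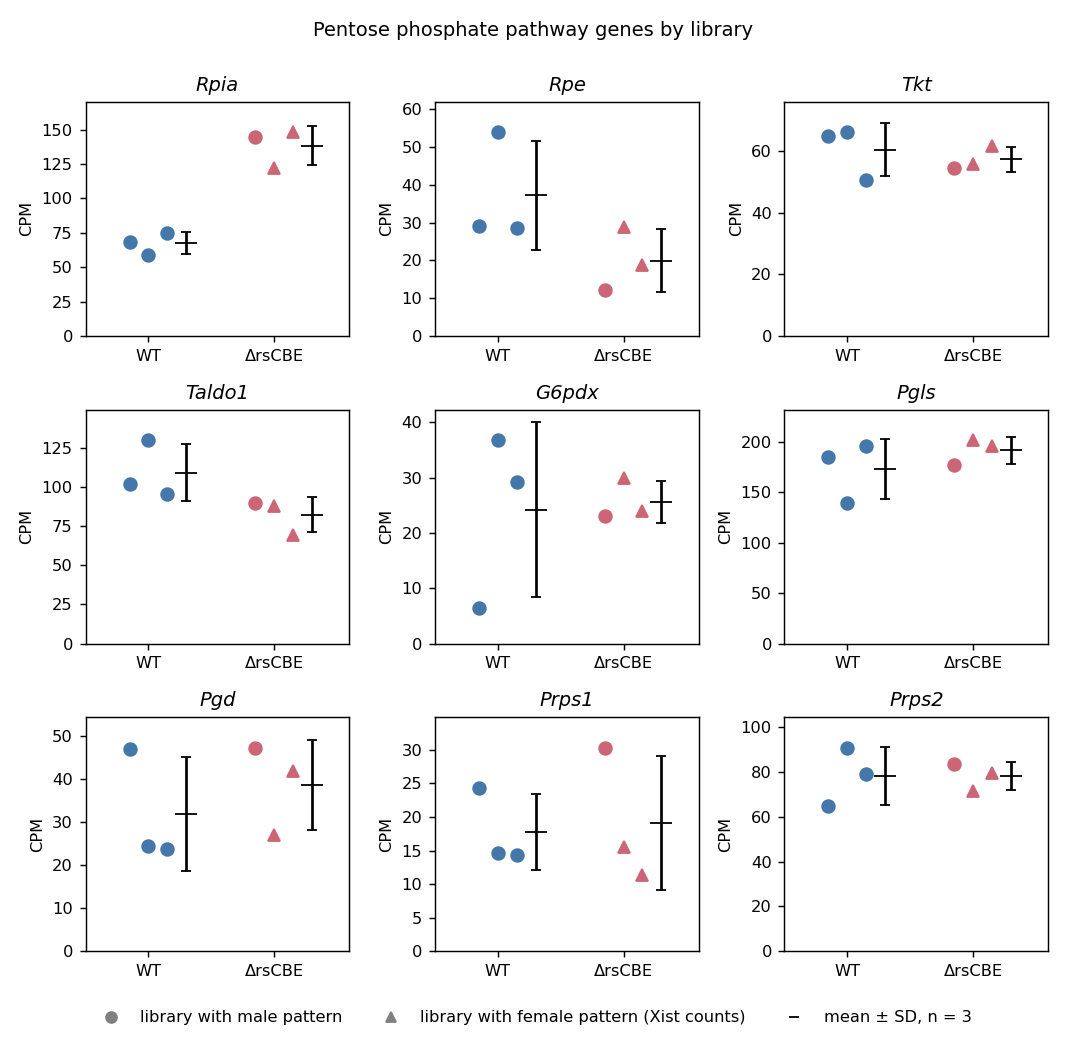
Level of each of the 9 enzymes in CPM (vertical axes, from 0) in the 3 WT and 3 ΔrsCBE libraries, where circles are libraries with the male and triangles those with the female pattern, and the bar is the mean ± SD. Rpia separates the genotypes upward (58.9 to 75.2 against 122 to 148 CPM), Taldo1 is separated downward by a small gap (95.8 against 89.6 CPM), and the other 7 overlap.

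In the non-oxidative arm, Rpe (chromosome 1, 66700831 to 66719805, plus strand), the epimerase that competes with Rpia for ribulose 5-phosphate, stood at 29.2, 53.9 and 28.5 CPM in the WT libraries and at 12.1, 28.9 and 18.9 CPM in the ΔrsCBE libraries. The groups overlapped narrowly, because ΔrsCBE replicate 2 lay just above WT replicate 3. Its log2 fold change, -0.76, had an SE of 0.34 and a 95% interval from -1.47 to -0.06 (edgeR adjusted p 0.421). The value depends on single libraries: it was -0.49 without WT replicate 2, -0.50 without ΔrsCBE replicate 1 and -1.15 without ΔrsCBE replicate 2. With sex as a covariate, where the genotype difference rests on ΔrsCBE replicate 1 alone against WT, it was -1.50 (edgeR adjusted p 0.217). Rpe has few reads, between 10 and 36 counts per library, and the exact 95% Poisson interval of its smallest count runs from 4.80 to 18.4, which covers counting error only. It overlaps Kansl1l on the opposite strand, whose annotated transcripts share 558 bases with it and which had a log2 fold change of -0.07. Whether the counting separated the strands is not given in the sources used here, so the Rpe count is uncertain to that extent.

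Taldo1 (chromosome 7, 141392199 to 141402968, plus strand), the transaldolase that moves 3-carbon units between sugar phosphates, stood at 102, 130 and 95.8 CPM in the WT libraries and at 89.6, 87.8 and 69.5 CPM in the ΔrsCBE libraries. Each ΔrsCBE library lay below each WT library, but the gap between the groups was smaller than the spread within either. The means were 109 ± 18.2 and 82.3 ± 11.1 CPM (SD), and the log2 fold change of -0.36 had an SE of 0.18 and an interval from -0.74 to 0.01 (edgeR adjusted p 0.507). The processed pseudogene Gm17823 matches 1016 bases of Taldo1 at 94.8% identity and had 24 counts over the 6 libraries, against 451 for Taldo1, so the Taldo1 count is uncertain where reads could be divided. Tkt (chromosome 14, 30548359 to 30574720, plus strand), the transketolase that moves 2-carbon units, stood at 64.9, 66.2 and 50.7 CPM in the WT libraries and at 54.5, 55.8 and 61.9 CPM in the ΔrsCBE libraries. The ΔrsCBE libraries all lay inside the WT range, with a log2 fold change of -0.03 and an interval from -0.47 to 0.40 (edgeR adjusted p 0.979).

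Set against its partners within the same library, which needs no scaling between libraries, Rpia took a larger share of the non-oxidative arm in ΔrsCBE. The ratio of Rpia to Rpe counts was 2.33, 1.09 and 2.64 in the WT libraries and 12.0, 4.21 and 7.80 in the ΔrsCBE libraries. The ratio to Taldo1 was 0.667, 0.453 and 0.785 in WT and 1.62, 1.39 and 2.13 in ΔrsCBE, so Rpia had fewer counts than Taldo1 in each WT library and more in each ΔrsCBE library. The ratio to Tkt was 1.05, 0.889 and 1.48 in WT and 2.67, 2.19 and 2.39 in ΔrsCBE. In all 3 ratios the groups did not overlap, which is given as a description because Rpia was selected from this same contrast.

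**Figure D2:**
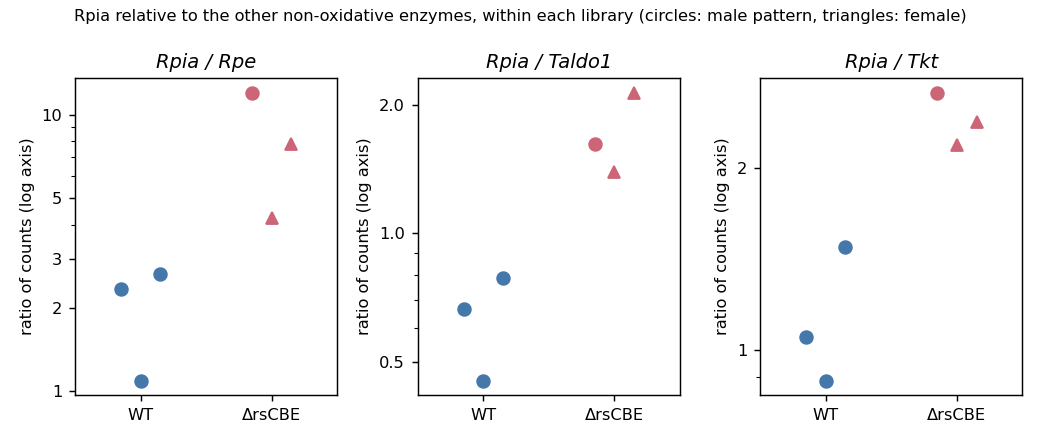
Ratio of Rpia counts to Rpe, Taldo1 and Tkt counts (log axes) in each WT and ΔrsCBE library, with circles for the male and triangles for the female pattern. Each ΔrsCBE library is above each WT library in the 3 panels, with the narrowest gap for Tkt (1.48 against 2.19).

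In the oxidative arm, G6pdx (chromosome X, 74409483 to 74429194, minus strand), the glucose 6-phosphate dehydrogenase that commits glucose 6-phosphate to the pathway, stood at 6.49, 36.8 and 29.3 CPM in the WT libraries and at 23.0, 30.0 and 24.0 CPM in the ΔrsCBE libraries. WT replicate 1 stood far below the other 5 libraries with 4 counts, whose exact 95% Poisson interval is 1.09 to 10.2. The log2 fold change was 0.10 with an interval from -0.67 to 0.88 (edgeR adjusted p 0.972), and it was -0.30 without that library. The related gene G6pd2, 93.2% identical over 2332 bases, had 7 counts in all, every one in WT, and G6pdx also overlaps Ikbkg on the opposite strand. Pgls (chromosome 8, 71592176 to 71601092, plus strand), the lactonase of the second step, had the most reads of the 9, with 185, 140 and 196 CPM in WT and 177, 202 and 196 CPM in ΔrsCBE. The groups overlapped, and the log2 fold change of 0.11 had an interval from -0.19 to 0.41 (edgeR adjusted p 0.881). Pgls shares 677 transcribed bases with Fam129c on the same strand. The deposited counts list no gene under the name Fam129c, so how reads there were assigned is not known. Pgd (chromosome 4, 149149991 to 149166771, minus strand), the 6-phosphogluconate dehydrogenase that releases ribulose 5-phosphate, stood at 47.0, 24.5 and 23.8 CPM in the WT libraries and at 47.2, 26.9 and 41.7 CPM in the ΔrsCBE libraries. Both groups spanned nearly the same range, and the log2 fold change was 0.30 with an interval from -0.32 to 0.92 (edgeR adjusted p 0.807).

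At the exit towards nucleotides, Prps1 (chromosome X, 140456613 to 140476140, plus strand) stood at 24.3, 14.7 and 14.3 CPM in the WT libraries and at 30.3, 15.5 and 11.4 CPM in the ΔrsCBE libraries. The highest and the lowest of the 6 values were both ΔrsCBE, and the log2 fold change of 0.13 had an interval from -0.68 to 0.93 (edgeR adjusted p 0.965). Without ΔrsCBE replicate 1 it was -0.35. Its paralog Prps1l3, which is 93.2% identical over 1478 bases, had 419 counts against 88 for Prps1, so the Prps1 count is uncertain where reads could be divided. Prps1l3 had a log2 fold change of -0.03, with an interval from -0.41 to 0.35. Prps2 (chromosome X, 167346322 to 167382749, minus strand), the second synthetase, stood at 64.9, 90.7 and 79.2 CPM in the WT libraries and at 83.5, 71.3 and 79.6 CPM in the ΔrsCBE libraries. The ΔrsCBE values lay inside the WT range, with a log2 fold change of 0.01 and an interval from -0.38 to 0.40 (edgeR adjusted p 0.997). G6pdx, Prps1 and Prps2 are on the X chromosome, where the sexes differ in copy number. In none of the 3 did both female ΔrsCBE libraries lie above, or both below, all 4 male libraries.

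The upper 95% limits say how large a rise the data do not exclude in each enzyme. For Rpe and Taldo1 they were -0.06 and 0.01, and for Tkt, Prps2 and Pgls 0.40, 0.40 and 0.41. For G6pdx, Pgd and Prps1 they were higher, at 0.88, 0.92 and 0.93. For these 3 the estimate also moved with the libraries and the fit. Pgd was at 0.67 (SE 0.33) without WT replicate 1 and G6pdx at 0.42 (SE 0.49) without WT replicate 3. With the sex covariate Prps1 was at 0.80 (SE 0.45) and Pgd at 0.61 (SE 0.38), with edgeR adjusted p values of 0.553 and 0.611. A rise as large as the 0.99 of Rpia is within the error of those fits. The summed level of the 8 enzymes was 524, 557 and 518 CPM in WT and 517, 518 and 503 CPM in ΔrsCBE. The means were 533 ± 20.8 and 512 ± 8.47 CPM (SD, n = 3), a ratio of 0.962 with a two-sided exact permutation p of 0.1, the smallest that 3 libraries against 3 allow. The difference of -20.4 CPM became -8.53 CPM without WT replicate 2. On library size alone the exact permutation p was 0.3, as it was when Pgls was left out of the sum.

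**Figure D3:**
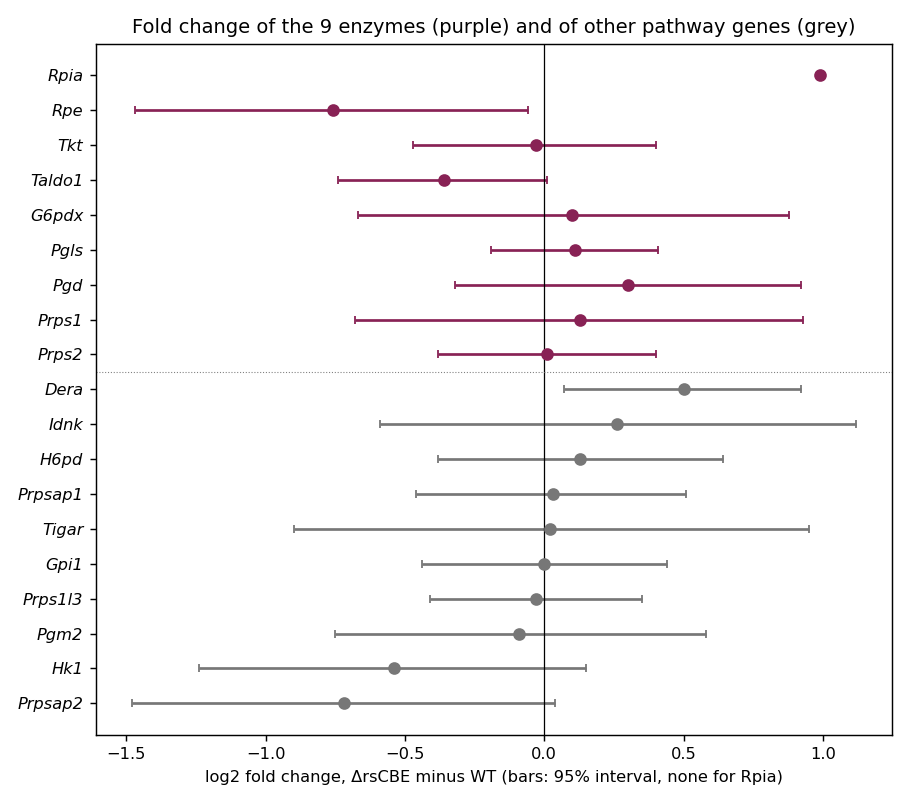
Log2 fold change, ΔrsCBE minus WT, with its 95% interval for the 9 enzymes (purple) and for the 10 tested genes of a list of other pathway genes (grey). Rpia is shown at 0.99 with no interval, since it was chosen for this difference. The intervals of Rpe (-1.47 to -0.06) and Dera (0.07 to 0.92) exclude 0 narrowly without passing the adjusted threshold, and the other 16 hold 0.

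Per kilobase of exonic sequence (GENCODE M21, all transcripts of a gene merged, which may differ from the annotation used for counting), the enzymes fell into an order. The order depends on these merged lengths, which run from 1.99 kb for Prps1 to 7.36 kb for Tkt. Which transcripts were present was not tested. In WT, Taldo1 (50.3 ± 8.39 CPM per kb) and Pgls (46.1 ± 7.87) came first and were within each other's spread. Prps2 followed at 20.2 ± 3.34, then Rpia at 12.6 ± 1.53 and Rpe at 11.9 ± 4.65, which were not separated. Prps1, Tkt and G6pdx lay between 7.86 and 8.91, within their spread, and Pgd was lowest at 4.93 ± 2.05 (SD, n = 3 for each). In ΔrsCBE, Pgls led at 50.8 ± 3.46, ahead of Taldo1 at 37.9 ± 5.12, and Rpia came next at 25.8 ± 2.65. Rpia thus changed places with Prps2. In WT it reached at most 14.0, below the 16.8 to 23.4 of Prps2. In ΔrsCBE it lay between 22.8 and 27.6, above the 18.4 to 21.6 of Prps2. That change of place restates the difference for which Rpia was chosen and is given as a description. Rpe, in the fifth place in WT, was in the eighth in ΔrsCBE, at 6.41 ± 2.71, and was not separated from Tkt, G6pdx, Prps1 or Pgd.

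Genes around the pathway were read from lists. Of 21 other pathway genes (entry kinases, side reactions, homologs and regulators of the 9 enzymes) 10 were tested and 0 passed the threshold by edgeR's quasi-likelihood test or by the DESeq2 Wald test at the same level, beside 1.69% of all tested genes by edgeR. Their median log2 fold change was 0.01, as it was over all tested genes. At an unadjusted p under 0.05 in edgeR there was 1 of the 10, near the 10.2% of all tested genes. That gene was Dera, the aldolase that splits deoxyribose 5-phosphate, with 45.4, 53.9 and 46.7 CPM in WT and 67.8, 68.2 and 66.9 CPM in ΔrsCBE. It was the 1 gene of the 10 whose groups did not overlap, against 16.1% of all tested genes, and its log2 fold change of 0.50 had an SE of 0.20 (edgeR adjusted p 0.356). At the low end was Prpsap2, which encodes a protein that associates with the Prps enzymes, at -0.72 (SE 0.37, edgeR adjusted p 0.532). Gpi1, the isomerase at the junction with glycolysis, and H6pd, the dehydrogenase of the endoplasmic reticulum, had log2 fold changes of 0.00 and 0.13. The transketolase homologs Tktl1 and Tktl2 were listed at 0 in every library, and the other untested genes had at most 45 counts in all.

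Of 7 enzymes that use PRPP, 3 were tested and 0 passed by edgeR or DESeq2, beside 1.69% of all tested genes by edgeR. At an unadjusted p under 0.05 in edgeR there was 1 of the 3, beside 10.2% of all tested genes. That was Hprt, the purine salvage enzyme, with 40.6, 46.6 and 42.0 CPM in WT and 33.9, 21.7 and 32.8 CPM in ΔrsCBE. Its groups did not overlap, those of the other two did, and 16.1% of all tested genes had groups that did not. The log2 fold change of -0.54 had an SE of 0.26 (edgeR adjusted p 0.483). Of 11 other sources of NADPH 7 were tested, with a median log2 fold change of -0.06. Nnt, the transhydrogenase of mitochondria and the most abundant of them, averaged 175 ± 20.5 CPM in WT against 202 ± 23.0 CPM in ΔrsCBE, and Idh2 105 ± 16.7 and 89.3 ± 19.6 CPM. Of 10 genes whose products use NADPH 6 were tested, with a median of -0.04, and the lowest was Txnrd1, a thioredoxin reductase, at -0.42 with an SE of 0.30. Of 11 regulators 9 were tested, with a median of 0.11 and a range from -0.24 to 0.23. They included Nfe2l2, the activator of antioxidant genes, at 0.23, and Pax5 and Ikzf1, B-lineage factors known to restrain glucose use in pre-B cells, at 0.11 and 0.00. In these 3 lists 0 genes passed by edgeR or DESeq2, and 0 had an unadjusted p under 0.05 with either, beside the same shares of all tested genes.

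The position of Rpia raises the question whether genes beside the enzymes changed with them. Within 500 kb on each side of the 9 enzymes 72 genes were tested and 0 passed the threshold by edgeR, against 1.69% of all tested genes. The smallest adjusted p was 0.0919, for Colgalt1 beside Pgls. Around Rpia 5 genes were tested, with log2 fold changes from -0.62 to 0.25 and a smallest edgeR adjusted p of 0.499. Igkc, 38.8 kb from Rpia, is not among these 5, and none of them carries the name of a kappa gene. The comparison therefore says nothing about the kappa genes themselves. The nearest on the Igkc side, the noncoding gene Gm30211, was at -0.18 with an SE of 0.36, and the nearest on the other side, Eif2ak3, a kinase of the endoplasmic reticulum stress response, was at 0.19 with an SE of 0.12. The neighbours of Rpe, Map2 and Kansl1l, were both at -0.07. Those of Taldo1, Eps8l2 and Pidd1, were at 0.14 and -0.69, with SEs of 0.38 and 0.40.

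**Figure D4:**
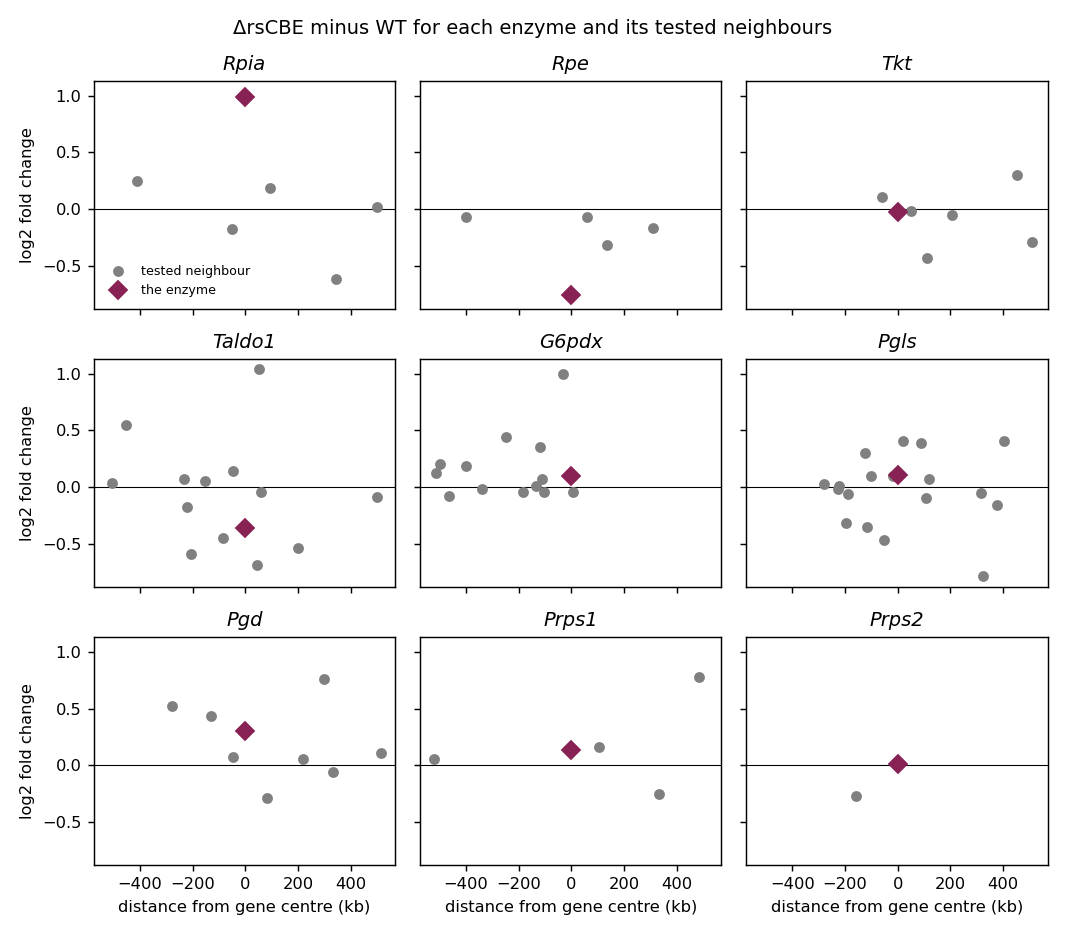
Log2 fold change, ΔrsCBE minus WT, of each enzyme (diamond, at distance 0) and of the tested genes around it (grey circles) against distance from the centre of the enzyme's gene in kb. The 5 tested neighbours of Rpia, which do not include Igkc, lie between -0.62 and 0.25, below the Rpia value of 0.99. Of the 72 neighbours in the 9 panels, 0 passed the threshold.

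Across the 6 libraries, genes whose log2 CPM was most like that of Rpia included Apbb1, Myo7a, Jun and Pik3ap1, with Pearson correlations from 0.977 to 0.986. These were picked from the top of 7791 other genes over only 6 libraries in 2 groups. Of those genes 112 were at 0.9 or above. Jun, a subunit of the transcription factor AP-1, ranged from 944 to 1210 CPM in WT and from 1590 to 2090 CPM in ΔrsCBE. Of these 4 genes it was the 1 past the threshold, with a log2 fold change of 0.80. None of the other 8 enzymes was near them. Pgls was the closest at 0.536 (rank 1454), followed by Pgd at 0.450. Taldo1 and Rpe were at the opposite end, at -0.856 and -0.832 (ranks 7449 and 7366). These correlations are descriptions that share the same libraries and include the difference between the genotypes.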

How the data were processed

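RNA-seq of 6 libraries was used, 3 WT and 3 ΔrsCBE, with groups from the genotype label and columns matched by library name. Per the labels' protocols, ribosomal RNA was depleted and libraries were made with a stranded total RNA kit. The deposited values are raw whole-number counts per gene symbol, 1 column per library. The submitters' processing notes name Trim Galore 0.6.10, STAR 2.7.11, HTSeq, DESeq2 and the build mm10. The annotation, strand setting and filters are not given in the sources used here.

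Counts were tested with edgeR 4.0.16 in R 4.3.3: filterByExpr (minimum count 10, 7792 genes kept), TMM factors of 0.978 to 1.02, a robust glmQLFit with genotype as sole factor, glmQLFTest, and Benjamini-Hochberg adjustment over all tested genes with a threshold of 0.05. Standard errors and 95% intervals come from the F statistic, and the code was tested on simulated data. Log2 CPM used a prior count of 2. Alternatives used DESeq2 1.42.0 and other scalings, filters and covariates. Coordinates and lengths are from GENCODE M21, and copies of at least 500 bases at 90% identity were found with blastn 2.17.0.

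The members and lists were chosen with earlier results of these data known. Named were all 9 enzymes, list genes past the threshold or in order of mean CPM, the nearest tested neighbours, and the 5 genes most like Rpia, of which 1 is not reported here. Dera, Prpsap2, Hprt, Txnrd1, H6pd and Colgalt1, and the neighbours given for 3 of the enzymes only, were picked after their values were seen. The same holds for Vpreb3, Blnk, Cd79a and Il2ra. Same-numbered replicates did not deviate together, so no pairing was used.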

Additional observations from a re-analysis of the deposited data

How the results depend on the processing

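The 0 calls among the 8 enzymes other than Rpia held under each alternative: scaling by library size alone, DESeq2 size factors or TMM without cell-cycle genes, the DESeq2 Wald test, no filter or 1 CPM in at least 3 libraries, an adjusted p under 0.1, the replicate block, the sex covariate, and each library left out. These settings called 59 to 188 genes among 7792 to 17435 tested, so a count of 0 among 8 is near that background. Rpia kept its direction, at 0.94 to 1.11. Over all genes the 132 calls became 87 with the sex covariate, and 59 to 187 with 1 library left out, 59 both without WT replicate 3 and without ΔrsCBE replicate 3; the cause was not tested. The replicate block gave 136 calls, and 0 among the 8. Deviations of same-numbered libraries from their group means had correlations of 0.00908 to 0.0197, and those of differently numbered ones -0.0472 to 0.0345. No pairing by number was seen, and whether same-numbered libraries were prepared together was not tested.

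Small differences turned sign. With the sex covariate G6pdx was at -0.07 and Pgls at -0.02, while Prps1 moved from 0.13 to 0.80 and Pgd from 0.30 to 0.61. With 1 library left out, Tkt ran from -0.19 to 0.03, G6pdx from -0.30 to 0.42, Prps1 from -0.35 to 0.40, Pgd, always above 0, from 0.04 to 0.67, and Prps2 from -0.10 to 0.09. Rpe and Taldo1 stayed below 0 in all 14 alternatives, at -1.50 to -0.49 and -0.47 to -0.24. Depth limits G6pdx, Prps1 and Rpe most, with mean counts of 20.5, 14.7 and 21.5 per library. The WT group has no female library, so sex and genotype cannot be told apart in ΔrsCBE replicates 2 and 3.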
